A study of Mus musculus with 12 samples.

Results

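The genes studied here are Fos, Fosb, Fosl1, Fosl2, Jun, Junb, Jund and Atf3, which encode 8 of the basic leucine zipper proteins that form the transcription factor AP-1. Their chromatin was followed by ATAC-seq, in which a transposase cuts and tags accessible DNA, in natural killer (NK) cells of mouse spleen. The members of the set are all accessible regions within 50 kb of the body of 1 of these genes, on mouse genome build mm10. There were 79 such regions of 45082 in the genome. Of the 603679 distinct intervals in the 12 full peak lists 1199 lay within these distances, inside or outside the regions, with 75 to 124 per library. Cells were labelled WT or KO, which the design text gives as Reg-1 fl/fl and Reg-1ΔNK. Regnase-1 is an RNA-cutting enzyme that limits inflammation by destroying the transcripts of cytokines and their regulators. Both genotypes were profiled as untreated controls and after stimulation with IL12/18, that is interleukin-12 with interleukin-18, with 3 libraries in each of the 4 groups. The driver of the deletion, the age of the mice, the length and dose of the stimulation, and whether replicates were separate animals are not given in the sources used here. The p-values therefore measure the spread between these libraries, which may be technical.

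FOS proteins (Fos, Fosb, Fosl1, also called Fra-1, and Fosl2, also called Fra-2) cannot pair with each other and bind DNA as dimers with a JUN protein, whereas JUN proteins (Jun, Junb, Jund) can also pair among themselves. ATF3 is a stress-induced member of the wider family that pairs with itself or with JUN proteins and often represses its targets. Fos, Jun, Junb and Atf3 are classical immediate-early genes, transcribed within minutes of a signal through MAP kinases and already poised at their promoters in resting cells. In NK cells interleukin-12 signals through STAT4, and interleukin-18 signals through MyD88 to NF-kB and MAP kinases.

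The 12 lists differed in length, from 35110 distinct intervals in the first KO stimulated library to 63128 in the third WT stimulated library, so each was cut to its 35110 strongest. That first KO stimulated library set the common length and was itself not cut. Its weakest listed interval, with a −log10 q of 1.31, was therefore the end of its full list. The value at the cut was 4.60 in the second KO stimulated library and 5.76 to 27.1 in the other 10. Of 9 NK marker genes, 8 or 9 carried a called region in every library. Of the B-cell markers, Pax5 carried one in all 12 libraries and Ebf1 in 9, whereas Ms4a1, Cd79a and Cd79b carried one in none. Of the 6 T-cell markers 2 or 3 carried one per library: Cd3d in all 12 libraries, Cd5 in 11 and Cd3e in 10, with Cd3g, Cd4 and Cd8a in none. So did 1 of 7 myeloid markers (Cd14) and 2 of 5 erythroid markers (Klf1 and Epor), each in all 12. The ranges of these counts overlapped between all 4 groups. In bulk cells, fewer cells with an open region and less opening per cell cannot be told apart.

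For each region and library 3 measures were taken. A region was called when an interval of the cut list overlapped it. Its rank percentile placed the strongest such interval among all intervals of that library, from 100 for the strongest down to 0 for a region not called. Its width was the number of bases covered. A rank is a position relative to the rest of the same library and not an amount of signal. The treatment was tested by exact two-sided permutation within genotype, and p-values were adjusted over all testable regions of the genome.

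Stimulation changed the rank of 35 of the 73 member regions that could be tested, in both directions. In 21 the rank was higher after IL12/18, against a background of 22.4% of all regions tested, and in 14 it was lower, against 29.1%. The median difference was 0.162 percentile points over the 79 member regions and −1.60 over all regions. In 23 of the 73 the stimulated libraries lay all above, or all below, the controls within each genotype, in the same direction. Over the genome 12882 of 38051 regions did so, so this separation was common. Separation of all 6 stimulated from all 6 control libraries, as named below for single regions, is a stricter pattern. Of the 14 member regions testable for their call, 4 were called more often after stimulation (background 33.8%) and 3 less often (25.9%). Width was greater in 7 of 73 (background 11.1%) and smaller in 5 (11.2%). Without the first KO stimulated library 41 of 76 testable ranks changed (genome 9800 higher and 11535 lower of 38866). In that setting 8 of 16 calls (3691 and 2682 of 10568) and 13 of 76 widths (4638 and 3911 of 38861) changed. Of the calls, 1 of 10 changed when all deposited intervals were used (1144 and 395 of 12434). With each list cut at a −log10 q of 10 it was 0 of 10 (639 and 457 of 9516). With lists 0.5 times as long 22 of 50 ranks changed (3958 and 4866 of 19406). The counts differed between the genes. Of the regions testable for rank, Atf3 had 6 higher and 0 lower of 9, and Jun 3 higher and 0 lower of 4. Fosl1 had 1 higher and 3 lower of 11, and Fosb 1 higher and 3 lower of 12. Fos had 3 higher and 2 lower of 9, Fosl2 3 and 2 of 7, Jund 3 and 2 of 12, and Junb 1 and 2 of 9. The member gene was the nearest protein-coding gene for 34 regions. Of these 31 could be tested, and 13 were higher and 4 lower. Another gene lay nearer to 45 regions. Of these 42 could be tested, and 8 were higher and 10 lower. Whether these splits differ from those around other genes was not tested.

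**Figure D1:**
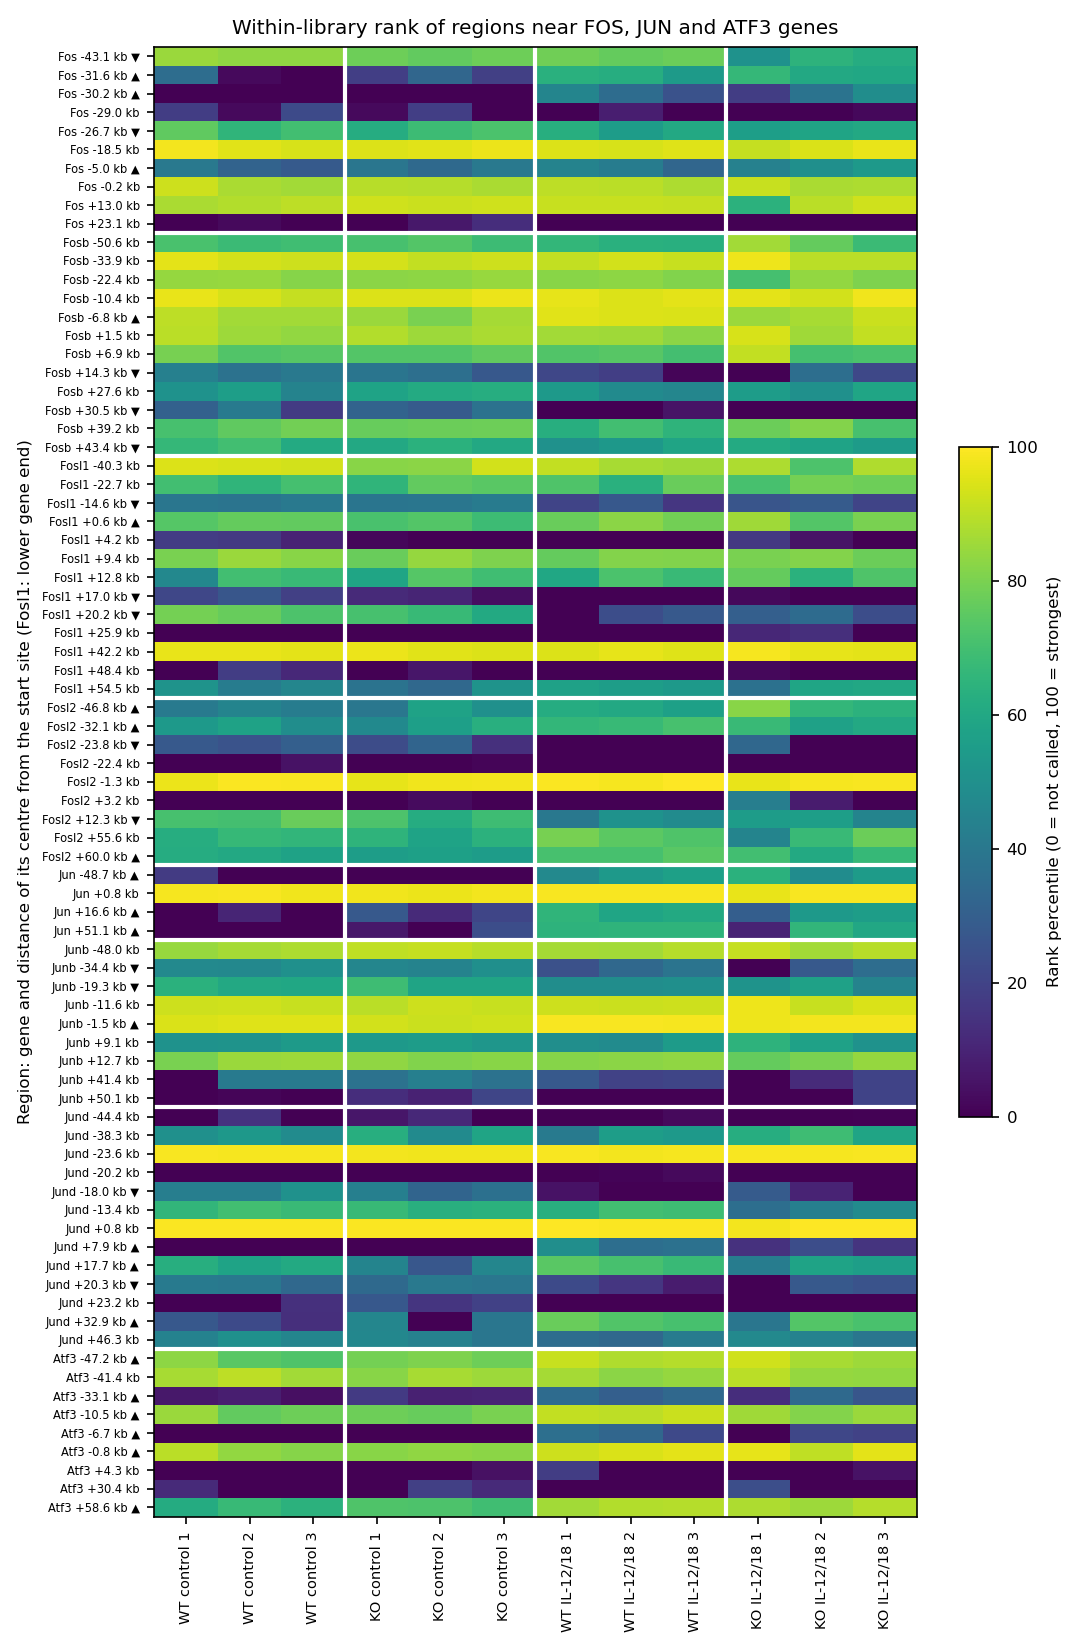
Rank percentile (colour, 0 for not called to 100 for the strongest interval) of the 79 regions (rows, by gene and distance of the region's centre from the start site; for Fosl1 from the lower gene end) in the 12 libraries (columns). Triangles mark the 21 regions whose rank was higher and the 14 whose rank was lower after stimulation; the start-site rows of Fos, Fosl2, Jun and Jund are bright in every library.

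The region over the start of each gene was called in all 12 libraries, and those of 3 genes gained rank with stimulation. At Atf3 (chr1:191181010-191187224) the rank percentile was 89.8, 83.6 and 81.8 in WT control, 82.1, 83.2 and 82.5 in KO control, 92.5, 94.2 and 96 in WT stimulated and 96.1, 90.5 and 96 in KO stimulated cells. The 6 stimulated libraries lay at 90.5 to 96.1 and the 6 controls at 81.8 to 89.8, without overlap, a difference of 10.4 (exact adjusted p = 0.0148). At Junb (chr8:84973703-84986814), a negative regulator of Jun in many settings, the region was an open domain of 13112 bp that reached into Prdx2. Its rank percentile was 94.5, 95.2 and 95 in WT control, 93.1, 92.1 and 92.7 in KO control, 98.9, 99.1 and 98.8 in WT stimulated and 97.4, 98.3 and 98.3 in KO stimulated cells, again without overlap (difference 4.71, exact adjusted p = 0.0148). Over the lower end of Fosl1 (chr19:5446941-5449600) it was 73.7, 76.5 and 75.8 in WT control, 71.5, 73.4 and 68.6 in KO control, 77, 82.5 and 78.8 in WT stimulated and 85.9, 73.1 and 79.8 in KO stimulated cells, where the second KO stimulated library lay within the control range. That difference of 6.25 passed with all 12 libraries (exact adjusted p = 0.0259) and missed the threshold without KO control library 1, 2 or 3 (exact adjusted p of 0.0726 to 0.0883).

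The start regions of the other 5 genes did not pass the test. Jund (chr8:70693416-70703731), the JUN protein found in most resting cells, stood at 99.5 to 99.6 in control and 98.4 to 99.7 in stimulated libraries, and Jun (chr4:95048821-95054054) at 97.2 to 98.9 and 96.8 to 99.1. Fosl2 (chr5:32132246-32138186) stood at 96.2 to 99.5 and 96.5 to 99.6, so these 3 regions already held some of the strongest intervals of resting NK cells. Fos (chr12:85471827-85475537) ranged from 85.9 to 92.4 in control and 87.2 to 91.7 in stimulated libraries, and Fosb (chr7:19306082-19310915) from 83.8 to 89.5 and 82.6 to 93.9. Their differences were 0.483 for Fos and 0.862 for Fosb, with exact adjusted p of 0.738 and 0.721. A rank percentile cannot exceed 100, so a rise of the whole region at Jund, Jun or Fosl2 could only be small. Whether this limit bears on their results was not tested. It does not describe the Jund start itself. In control libraries the strongest summit lay 1029 to 1113 bp after the start at Jund and 671 to 949 bp before it at Fosl2. The window over the Jund start, ranked separately below, was at 0 to 40.5 in control and 0 to 69.4 in stimulated libraries. None of the 8 start regions changed in width.

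**Figure D2:**
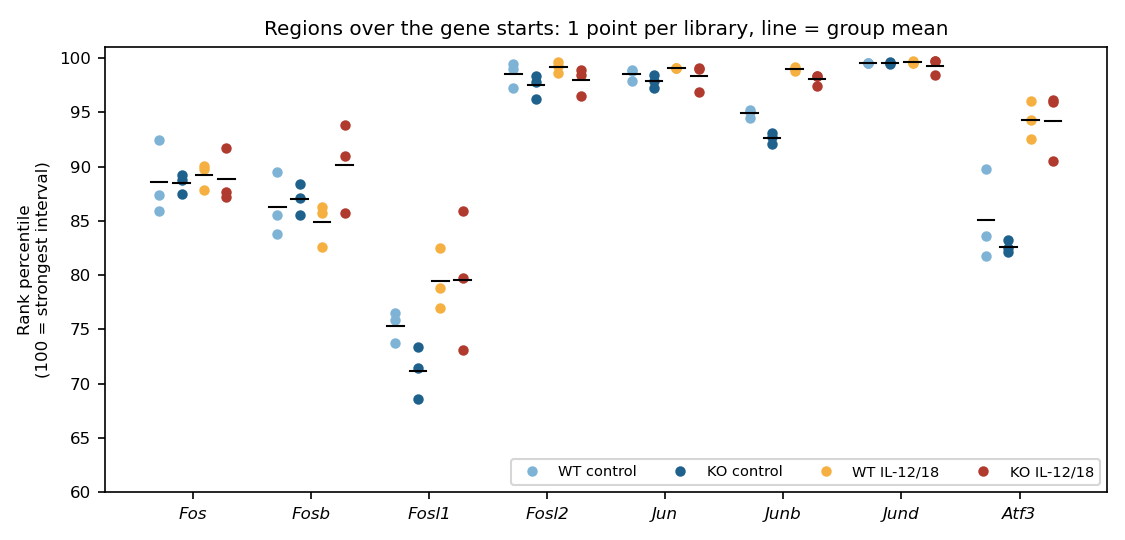
Rank percentile (vertical axis, 100 = strongest interval of the library, axis from 60) of the region over each gene's start, with 1 point per library and a line at the mean of each of the 4 groups. Only at Junb and Atf3 do all 6 stimulated libraries lie above all 6 controls; Fosl2, Jun and Jund lie above 96 in every library.

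The 250 bases before the start site lie inside these open regions. They are shown for the pair whose regions gained rank without overlap, Atf3 and Junb, and for the pair of immediate-early genes that did not pass, Fos and Jun. At Junb these bases lie in the part of the domain over the start, which did not pass when ranked separately (exact adjusted p = 0.116, given below). They were taken from RefSeq for GRCm38.p6, the assembly behind mm10, which held a window for 7 of the 8 genes. Each reads 5′ to 3′ on the strand of the gene up to the base before the start, and capitals mark matches to 5 motifs searched on both strands. These were the AP-1 site, spelled TGANTCA, and the cyclic AMP response element (CRE), spelled TGACGTCA, with the core it shares with related sites, spelled TGACG. The other two were the Jun-type site, spelled TGACATCA, and the core promoter box bound by the TATA-binding protein, spelled TATAAA.
Atf3 (chr1:191183334-191183583, minus strand): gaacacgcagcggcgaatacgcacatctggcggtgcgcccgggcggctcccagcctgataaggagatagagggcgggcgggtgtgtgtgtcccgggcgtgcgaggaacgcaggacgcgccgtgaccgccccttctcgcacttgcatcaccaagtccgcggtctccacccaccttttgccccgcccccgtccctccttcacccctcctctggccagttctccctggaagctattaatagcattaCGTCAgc
Junb (chr8:84978749-84978998, minus strand): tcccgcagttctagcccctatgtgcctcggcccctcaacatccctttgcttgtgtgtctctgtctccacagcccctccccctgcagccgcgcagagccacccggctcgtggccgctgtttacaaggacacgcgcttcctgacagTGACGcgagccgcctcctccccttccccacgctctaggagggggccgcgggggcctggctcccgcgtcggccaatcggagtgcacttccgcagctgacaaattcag
Fos (chr12:85473640-85473889, plus strand): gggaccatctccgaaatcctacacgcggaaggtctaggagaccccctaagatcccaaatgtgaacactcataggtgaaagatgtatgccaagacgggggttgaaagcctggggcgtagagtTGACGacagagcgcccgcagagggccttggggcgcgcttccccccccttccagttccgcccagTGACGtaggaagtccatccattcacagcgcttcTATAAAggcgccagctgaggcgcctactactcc
Jun (chr4:95052223-95052472, minus strand): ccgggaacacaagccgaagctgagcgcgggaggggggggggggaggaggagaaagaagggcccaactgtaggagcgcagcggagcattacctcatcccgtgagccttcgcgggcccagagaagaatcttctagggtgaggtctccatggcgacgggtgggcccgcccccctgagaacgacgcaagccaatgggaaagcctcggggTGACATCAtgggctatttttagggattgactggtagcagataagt
The full CRE contains the CRE core, so any match to it is also a match to the core. A CRE core was found in Atf3 at bases 7 to 3 before the start, in Junb at 106 to 102, and in Fos at 129 to 125 and 66 to 62, as well as in Fosb, against 20.2% of 21262 mouse windows of the same length. The Jun-type site, first described in the Jun promoter, stood in Jun at bases 45 to 38 (2.86% of all windows), and the core promoter box in Fos at bases 33 to 28 (11.6%). The letters of the 7-base AP-1 site and of the full CRE were in none of the 7 windows (6.13% and 1.92% of all windows), nor were those of the interferon-type GAS site TTCNNNGAA (6.58%) or the CArG box bound by SRF (1.39%). CCAAT was present in Jun and Junb (35.4%) and an NF-kB consensus in Fos, Fosb and Fosl2 (7.91%). The search covered only these 250 bases, so sites farther upstream or after the start were not looked for. The matches are of letters and show no binding.

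Because the broad start regions held several summits, short windows around those summits, merged where they overlapped, were ranked separately, a comparison chosen after the data were seen. Over the genome 8952 windows were higher and 12249 lower of 40528 tested, so a window that passed was common. Among the windows within 50 kb of the member genes 28 were higher and 21 lower of 103 tested. The domain at Junb divided into 7 windows that did not behave alike. The window over the Junb start itself (0.8 kb before to 1.7 kb after) did not pass, with 90.1 to 93.7 in control and 89.9 to 96.5 in stimulated libraries (exact adjusted p = 0.116). The window centred 7.1 kb upstream, nearest to the neighbouring gene Hook2, was 84.5 to 91 in control and 97 to 98.6 in stimulated libraries (exact adjusted p = 0.0145). The one at 4.9 kb upstream was 41.3 to 59.9 in control and 65.9 to 78.9 in stimulated libraries (exact adjusted p = 0.0145). Beyond the gene's end, the window at 3.6 kb, nearest to Prdx2, was 57.9 to 72 in control and 74.2 to 90.8 in stimulated libraries (exact adjusted p = 0.0145) and the one at 2.3 kb was higher by 3.37 (exact adjusted p = 0.0353). The window at 2.3 kb upstream fell by 6.85 (exact adjusted p = 0.0353). The 4 windows that rose lay to either side of the window over the start.

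**Figure D3:**
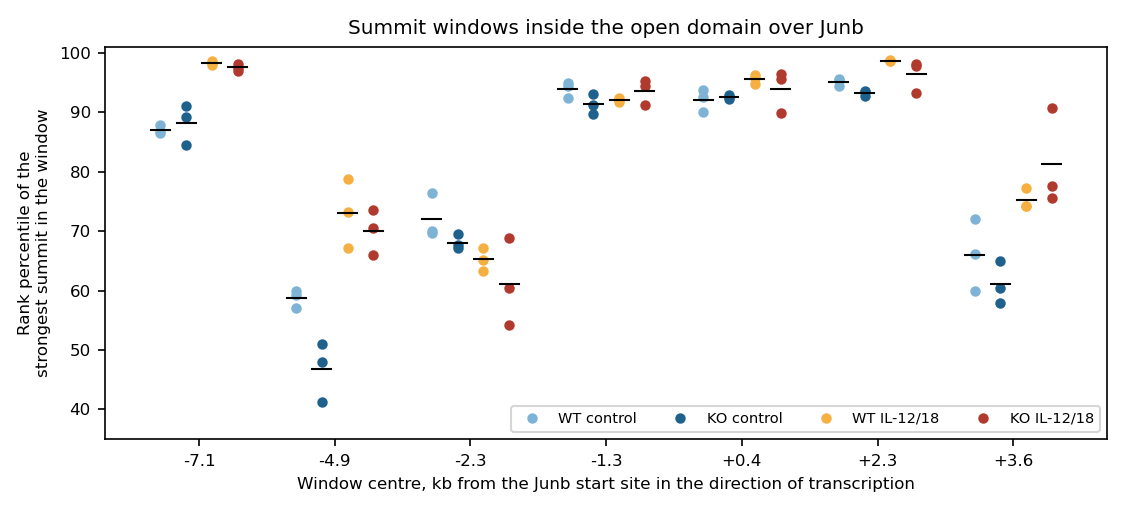
Rank percentile (vertical axis, axis from 35) of the strongest summit in each of the 7 summit windows of the open domain over Junb, by distance of the window's centre from the start site in kb (horizontal axis, categories), with 1 point per library and a line at each group's mean. At 7.1 and 4.9 kb upstream and 3.6 kb downstream all stimulated libraries lie above all controls, whereas the ranges overlap at 0.4 kb.

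At the other genes the same division gave windows that moved beside the one over the start. The window inside the Jun gene body (0.7 to 2.3 kb after the start) fell by 11.1, with 79 to 86.9 in control and 65.3 to 80.7 in stimulated libraries with overlap (exact adjusted p = 0.0254), while the window over its start, at 97.3 to 98.8 and 97 to 98.9, did not pass (exact adjusted p = 0.379). At Fos the window 1.6 kb upstream fell by 10.9, with 68.4 to 81.6 in control and 52.7 to 71.3 in stimulated libraries (exact adjusted p = 0.0395), and the start window did not pass (exact adjusted p = 0.918). The window 2.7 kb upstream of Fosl2 was 64 to 75.7 in control and 73.5 to 85.8 in stimulated libraries (difference 9.37, exact adjusted p = 0.0145). At Fosb the window over the start did not pass (exact adjusted p = 0.368), while one inside the gene 2.3 kb after the start was higher by 25, with 0 to 28 in control and 16.6 to 49.4 in stimulated libraries (exact adjusted p = 0.0478). At Jund the window centred 3.1 kb after the start fell by 7.37 (exact adjusted p = 0.0395) and that at 5 kb, over Iqcn, rose by 21.3 (exact adjusted p = 0.0145). The window over the Jund start was called in 3 of 6 control and 5 of 6 stimulated libraries and did not pass (exact adjusted p = 0.0883). At Atf3 the start window moved with its region, with 83.4 to 90.9 in control and 91.3 to 96.4 in stimulated libraries (exact adjusted p = 0.0145).

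Among the distal regions of Fos, 1 was called only after stimulation. This region 30.2 kb upstream (chr12:85443136-85444279), with Fos the nearest gene, was called in 0 of 6 control and 6 of 6 stimulated libraries (exact adjusted p = 0.0169). Its rank was 45.5, 35.2 and 25.2 in WT stimulated and 18.2, 38.2 and 49.2 in KO stimulated cells, and no control list held even a weaker deposited peak there. Its neighbour 31.6 kb upstream (chr12:85441645-85443012) was at 35.9, 2.59 and 0 in WT control, 18.6, 33 and 18.9 in KO control, 63.6, 62.2 and 54.5 in WT stimulated and 66.4, 60.4 and 59.5 in KO stimulated cells (difference 42.9, exact adjusted p = 0.0148). All 6 stimulated libraries were higher than all 6 controls at both places. A region 5.0 kb upstream rose by 8.92 (exact adjusted p = 0.0401), with overlapping ranges of 28.2 to 40.5 and 33.1 to 54.1, and passed on leaving out only WT control 1, WT stimulated 3 or KO stimulated 1 of the 12 libraries in turn (exact adjusted p of 0.0576 to 0.0968 without each of the other 9). In the opposite direction, the region 43.1 kb upstream (chr12:85430225-85431362) was at 84.8, 83.6 and 83.5 in WT control, 78.1, 75.8 and 78.1 in KO control, 78.5, 76.4 and 77.4 in WT stimulated and 50.8, 64.6 and 61.9 in KO stimulated cells (difference -12.4, exact adjusted p = 0.0148), lower without overlap within each genotype. The region 26.7 kb upstream was 61.7 to 75.5 in control and 55.2 to 62.6 in stimulated libraries (exact adjusted p = 0.0148). The strong region 18.5 kb upstream, at 91.2 to 98.1 in all libraries, did not pass.

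Around Fosb, whose protein accumulates after repeated stimulation in neurons, most of the regions that moved lay over other genes and fell. The region over Ppm1n 30.5 kb downstream (chr7:19279014-19280038) was at 30.9, 40.7 and 17.4 in WT control, 31.9, 28.6 and 37.7 in KO control, 0, 0 and 5.26 in WT stimulated and 0 in all 3 libraries in KO stimulated cells, called in 6 of 6 controls and 1 of 6 stimulated libraries (exact adjusted p = 0.0335 for the call). A deposited peak, called or weaker, remained in 5 of the 6 stimulated lists. The region 14.3 kb downstream, over Rtn2, was 27.7 to 43.6 in control and 0 to 36.1 in stimulated libraries (exact adjusted p = 0.0259). The region over Vasp 43.4 kb downstream was 60.2 to 69.9 in control and 50.7 to 61.1 in stimulated libraries (exact adjusted p = 0.036), a call lost (exact adjusted p of 0.0604 to 0.0648) without WT control 2, WT stimulated 1 or 2, KO control 2 or KO stimulated 3. Only the region 6.8 kb upstream (chr7:19316015-19317598), nearest to Fosb, rose: it was 90.2, 86.3 and 86 in WT control, 84.9, 80.1 and 86.6 in KO control, 95.6, 94.9 and 94.5 in WT stimulated and 85.1, 87.1 and 92 in KO stimulated cells (difference 5.83, exact adjusted p = 0.0259). The WT stimulated libraries stood above all others there, the KO ranges overlapped, and the call was lost without KO control 2 or KO stimulated 3 (exact adjusted p of 0.0517 to 0.0558). As a count, Fosb had 12 called regions in each control library, 11 or 12 in WT stimulated and 10 or 11 in KO stimulated cells (difference −1, exact adjusted p = 0.0444, background of genes lower 28.3%). This count did not pass without WT control 2, WT stimulated 1 or 2, or any 1 of the 3 KO control libraries.

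Fosl1 lies in a gene-dense stretch, and its largest change in rank lay over a neighbour. The region over Ctsw, which encodes cathepsin W of cytotoxic lymphocytes, 20.2 kb from the lower end of Fosl1 (chr19:5466507-5469282), was at 79.1, 76.7 and 72.2 in WT control, 71, 67.3 and 60.6 in KO control, 0, 23.6 and 27.9 in WT stimulated and 30.4, 35.1 and 23.5 in KO stimulated cells. All stimulated libraries were lower than all controls (difference -47.7, exact adjusted p = 0.0148). The adjoining region over Ctsw and Fibp (chr19:5463694-5465701) was called in 6 of 6 controls at 3.81 to 26.7 and in 1 of 6 stimulated libraries (exact adjusted p = 0.0335), although all 6 stimulated lists held a deposited peak of some strength. On the other side, 14.6 kb below Fosl1, the rank was 38.4 to 41.6 in control and 15.7 to 28.6 in stimulated libraries (exact adjusted p = 0.0148). This fall depended on what counted as a call: it was 7.08 in the opposite direction, and not significant (exact adjusted p = 0.595), when an interval had to cover 50% of the region.

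Fosl2 had regions moving in both directions within its own neighbourhood. Upstream, the rank at 46.8 kb (chr5:32088870-32090519) was 39.8 to 57.8 in control and 56.9 to 82.3 in stimulated libraries (difference 19.3, exact adjusted p = 0.0148). At 32.1 kb it rose by 10.6 (exact adjusted p = 0.0401), a call lost (exact adjusted p of 0.0535 to 0.0711) on leaving out any library other than WT control 1 or 2, KO control 3 or KO stimulated 2 or 3. The region 23.8 kb upstream (chr5:32112280-32113161) was at 28, 25.6 and 30.4 in WT control, 23.2, 32.4 and 13.8 in KO control, 0 in all 3 libraries in WT stimulated and 33.4, 0 and 0 in KO stimulated cells. It was called in 6 of 6 controls and 1 of 6 stimulated libraries (exact adjusted p = 0.0335), the exception being the shortest list. Its rank difference of -20.0 (exact adjusted p = 0.0401) passed on leaving out KO control 3 or KO stimulated 1 and not on leaving out any other library (exact adjusted p of 0.0635 to 0.0706). Inside the gene, 12.3 kb after the start (chr5:32147821-32149646), the rank fell by 21.0, with 62 to 77.3 in control and 39.9 to 56 in stimulated libraries without overlap (exact adjusted p = 0.0148).

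A region 60 kb after the Fosl2 start and nearest to Plb1 (chr5:32194227-32198774) was made of neighbouring intervals that did not move alike. Its rank was 61.8, 60.2 and 57.5 in WT control, 55.6, 56.8 and 55.3 in KO control, 70.7, 70.9 and 74.2 in WT stimulated and 69.6, 60.7 and 67.2 in KO stimulated cells (exact adjusted p = 0.0148). Its width was 966 to 1835 bp in control and 2659 to 4117 bp in stimulated libraries, a difference of 2068 bp (exact adjusted p = 0.0275). The strongest summit lay 61412 to 61423 bp after the start in the 6 controls and 59592 to 59808 bp in the 6 stimulated libraries. These summits belonged to neighbouring intervals, joined only in WT stimulated 3, where 1 interval ran from 57952 to 62068 bp. The interval at the farther summit ranked 55.3 to 61.8 in control libraries and 25.4 to 67.6 in stimulated libraries that listed it apart. That at the nearer summit ranked 12.1 at most in control and 60.7 to 74.2 in stimulated libraries. The region's change in rank and width therefore combines these intervals. Only 1.3% of the 21089 regions called in every library had summits that parted the groups by at least 500 bp in this way, and 2 of the 49 such member regions did, a measure chosen after the data were seen.

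Jun, a dimer partner of the FOS proteins, stood in sparse chromatin: 4 regions lay within 50 kb, 1 over the gene and 3 distal, and all 3 distal ones rose. At 48.7 kb upstream (chr4:95099490-95102373) the rank was 17.2, 0 and 0 in WT control, 0 in all 3 libraries in KO control, 47, 53.9 and 57 in WT stimulated and 63.8, 48.7 and 54.8 in KO stimulated cells, a difference of 51.3 (exact adjusted p = 0.0148). It was called in 1 of 6 control and 6 of 6 stimulated libraries (exact adjusted p = 0.0335), and all 6 control lists held a deposited peak of some strength. Its covered width was 0 to 467 bp in control and 953 to 2397 bp in stimulated libraries. At 16.6 kb downstream (chr4:95035146-95036029) the rank was 0, 10.5 and 0 in WT control, 28.1, 12.1 and 21.1 in KO control, 65.3, 58.8 and 60.6 in WT stimulated and 29.8, 53.8 and 55.8 in KO stimulated cells (difference 42.1, exact adjusted p = 0.0148), and at 51.1 kb downstream (chr4:95000216-95002000) it was 0 in all 3 libraries in WT control, 6.59, 0 and 23.6 in KO control, 64.7, 65 and 65 in WT stimulated and 10.1, 65.8 and 60.1 in KO stimulated cells (difference 50.1, exact adjusted p = 0.0259). The stimulated libraries did not overlap the controls at 16.6 kb, and at 51.1 kb the first KO stimulated library lay within the control range. The region at 16.6 kb was called in 3 of 3 KO and 1 of 3 WT controls, and that at 51.1 kb in 2 of 3 and 0 of 3. The difference between stimulated and control libraries at 16.6 kb was 58.1 in WT and 26 in KO cells. The difference between those, -32, did not pass (exact adjusted p = 0.673). Counted together, 2, 2 and 1 regions near Jun were called in the WT controls, 3, 2 and 3 in the KO controls and 4 in every stimulated library (difference 1.83, exact adjusted p = 0.0223, background of genes higher 16.7%). Jun was the 1 member gene of 4 testable whose count rose, as Fosb was the 1 whose count fell.

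**Figure D4:**
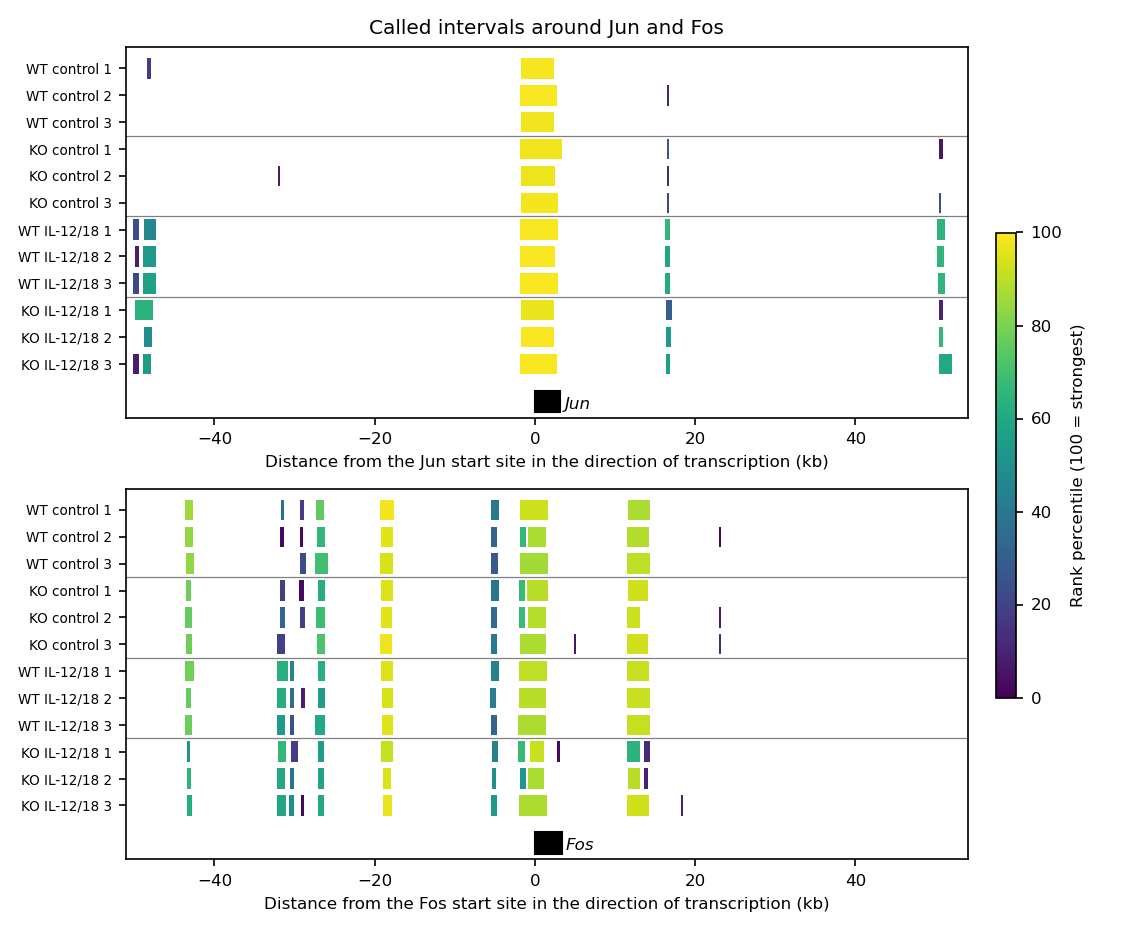
Called intervals around Jun (top) and Fos (bottom), by distance from the start site in the direction of transcription (kb), 1 row per library, coloured by rank percentile; black boxes are the gene bodies. At Jun the intervals near −48.7, 16.6 and 51.1 kb are wider or brighter in the stimulated rows, and at Fos the interval near −30.2 kb is drawn only in the 6 stimulated rows.

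Apart from its start domain, Junb had 2 regions that fell. The one 19.3 kb upstream, over Hook2, was 58.6 to 68.9 in control and 44.9 to 57.3 in stimulated libraries (exact adjusted p = 0.0148). The one 34.4 kb upstream, over Best2, was 44.8 to 50.4 in control and 0 to 38.3 in stimulated libraries (exact adjusted p = 0.0148), and was not called in the first KO stimulated library. The other 6 regions of Junb did not pass, among them one over Hook2 11.6 kb upstream at 89.7 to 97.5.

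Jund sits beside Iqcn, and a region 7.9 kb after its start over Iqcn (chr8:70705003-70706203) was called only after stimulation in both genotypes. It was present in 0 of 6 controls and 6 of 6 stimulated libraries (exact adjusted p = 0.0169), with ranks of 49.6, 36.1 and 37.4 in WT and 14.2, 23.7 and 15.1 in KO stimulated cells. Weaker peaks were deposited in 3 of the 6 controls. Over Pde4c, 32.9 kb downstream (chr8:70729735-70731466), the rank was 27.7, 22.3 and 13.7 in WT control, 45.7, 0 and 39.2 in KO control, 77.3, 72.8 and 70.9 in WT stimulated and 39.3, 73.4 and 71.3 in KO stimulated cells (difference 42.7, exact adjusted p = 0.0259). The first KO stimulated library stood within the control range, and the other 5 lay above it. The region 17.7 kb downstream rose by 11.6 (exact adjusted p = 0.036), with 27.2 to 62.6 in control and 42.1 to 74.4 in stimulated libraries, and this call was lost (exact adjusted p of 0.0534 to 0.0726) on leaving out any library other than WT control 1, WT stimulated 3, KO control 1 or 3 or KO stimulated 1. The 2 that fell were near Lsm4, 18.0 kb upstream (chr8:70678986-70680512), with 32.1 to 50.7 in control and 0 to 28.8 in stimulated libraries (difference -34.1, exact adjusted p = 0.0148), and 20.3 kb downstream, with 34 to 40.8 in control and 0 to 27.8 in stimulated libraries (exact adjusted p = 0.0148). The Lsm4 region 23.6 kb upstream, at 97.7 to 99.1, did not pass.

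Atf3 was the gene with the most regions moving in 1 direction. Besides the start, 5 distal regions rose. The region 6.7 kb upstream (chr1:191189635-191190457) was called in 0 of 6 controls and in 5 of 6 stimulated libraries (exact adjusted p = 0.0335). Its ranks were 36.5, 32.9 and 22.2 in WT stimulated and 0, 21.2 and 19.8 in KO stimulated cells, the 0 being the shortest list, and no control held a deposited peak there. At 10.5 kb upstream (chr1:191192765-191194980) the rank was 85, 75.8 and 78 in WT control, 77.9, 76.8 and 79.9 in KO control, 90.9, 90.1 and 91.9 in WT stimulated and 85.7, 81.5 and 85 in KO stimulated cells (difference 8.62, exact adjusted p = 0.0148). The WT libraries parted without overlap, and the highest control, WT control 1, lay within the KO stimulated range. At 33.1 kb upstream (chr1:191215889-191216973) it was 6.45, 8.26 and 4.22 in WT control, 17, 9.10 and 10.1 in KO control, 34.8, 30.4 and 33.8 in WT stimulated and 13.2, 34.4 and 26.6 in KO stimulated cells (difference 19.7, exact adjusted p = 0.0259), and at 47.2 kb upstream (chr1:191229704-191231355) it was 72.4 to 83 in control and 85.4 to 92.8 in stimulated libraries, without overlap (difference 10.9, exact adjusted p = 0.0148). Between these, the region 41.4 kb upstream did not pass, at 82.3 to 89.9 in control and 82.6 to 89.5 in stimulated libraries.

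The region 58.6 kb after the Atf3 start (chr1:191122919-191126511) lies closer to Batf3, a basic leucine zipper gene that partners JUN proteins. Its rank was 61.7, 67.3 and 64.4 in WT control, 72.6, 71.9 and 69.3 in KO control, 86.1, 88.4 and 88.8 in WT stimulated and 87.6, 85.5 and 88.7 in KO stimulated cells (difference 19.7, exact adjusted p = 0.0148). It held more than 1 summit, and the leading one was at 57216 to 57237 bp in all 6 controls and at 58982 to 59040 bp in all 6 stimulated libraries, a summit change like that near Fosl2. Covered width was 2300 to 2999 bp in control and 3018 to 3520 bp in stimulated libraries (difference 522 bp, exact adjusted p = 0.0275).

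**Figure D5:**
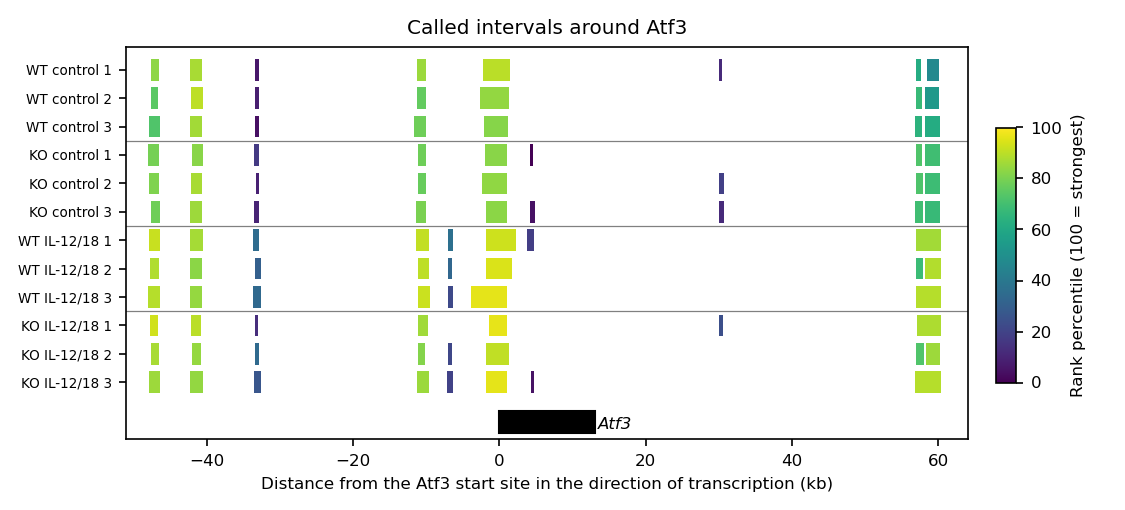
Called intervals around Atf3, by distance from the start site in the direction of transcription (kb), 1 row per library, coloured by rank percentile, with the gene body in black. The start region and the regions near −47.2, −10.5 and 58.6 kb are brighter in the stimulated rows, and the interval near −6.7 kb is drawn in 5 stimulated and 0 control rows.

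Calls that separated the groups fully within 1 genotype were few. In WT cells 4 of the 79 regions were called in 0 of 3 controls but in all 3 stimulated libraries (background 9.42%): Fos 30.2 kb upstream, Jun 51.1 kb downstream, Jund 7.9 kb downstream and Atf3 6.7 kb upstream. In KO cells 3 were (background 5.19%): the same Fos and Jund regions and Jun 48.7 kb upstream. The opposite pattern held for 3 regions in WT (6.42%), Fosl1 4.2 and 17.0 kb from its lower end and Fosl2 23.8 kb upstream, and for 2 in KO (4.65%), Fosb 30.5 kb and Jund 23.2 kb downstream. With 3 libraries against 3 such a pattern cannot reach p below 0.1 by exact permutation.

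Of the 12 width changes, the 3 at Fos 30.2 kb upstream (601 bp), Fosl2 60 kb downstream and Jund 7.9 kb downstream (819 bp) passed with any 1 library left out. The other 9 did not: exact adjusted p lay between 0.0505 and 0.0698 in those cases. Jun 48.7 kb upstream (1892 bp), Jun 51.1 kb downstream (747 bp), Fosl2 23.8 kb upstream (-706 bp) and Junb 34.4 kb upstream (-423 bp) were lost without any 1 of the 3 KO control libraries. Jun 16.6 kb downstream (417 bp) and Fosl1 17.0 kb (-1311 bp) were lost without WT stimulated 1 or 2, and Jund 18.0 kb upstream (-975 bp) without KO control 3. Fosb 14.3 kb downstream (-403 bp) was lost without WT control 2 or 3 or WT stimulated 1 or 2, and Atf3 58.6 kb without WT stimulated 1 or any KO control.

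No member region passed the threshold between KO and WT cells. Of 3 regions testable for their call, 69 for rank and 69 for width, 0 passed between KO and WT libraries, where the background was also 0% for each of these measures. The difference of the stimulation response between genotypes gave 0 of 69 (background 0%), and the number of called regions per gene 0 of 2 (background 0%). At an unadjusted p under 0.05 in the same exact permutation tests there were 0 for calls, 13 for rank, 10 for width, 6 for the response and 0 for the gene counts. Over all features tested the shares at that level were 13.6% for calls, 17.8% for rank, 21% for width, 5.81% for the response and 12.1% for the gene counts. The smallest p that these tests can give is 0.005. For rank, 3310 of the 33099 regions of the genome at that p would have been enough for those to pass, and 1942 reached it. A larger number of regions at a larger p would also have been enough. The smallest exact adjusted p of any region for rank was 0.0852. Within single treatments, 0 of 79 regions were called in 3 of 3 libraries of 1 genotype and 0 of 3 of the other, in control cells (background 2.04%) or stimulated cells (2.74%).

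The 4 member regions at that smallest p for rank all missed the threshold (exact adjusted p = 0.0852). Jund 17.7 kb downstream, over Iqcn (chr8:70714602-70716224), was at 62.6, 58.1 and 60.6 in WT control, 45, 27.2 and 45.8 in KO control, 74.4, 70.8 and 67.6 in WT stimulated and 42.1, 58 and 56.1 in KO stimulated cells. Every KO library was lower than every WT library of the same treatment, with a difference of -20.0. Fos 43.1 kb upstream, given above, differed by -12.5, the Fosl2 region 60 kb downstream by -5.05 and the Junb domain by -1.59, each with all KO libraries below the WT libraries of the same treatment. The KO stimulated lists include the 2 weakest of the series by their −log10 q at the end of the list, as given above, and the part of list strength in these values was not tested.

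The wider pathway was followed through 2 lists of genes. Of 16 relatives that dimerise with the members or bind similar sites, 15 had a region, 139 in all, and 30 of 120 tested rose in rank while 29 fell (background 22.4% and 29.1%). The number of called regions was higher after stimulation for Batf3 (7 ± 1, SD, in WT control against 9 ± 0 in WT stimulated cells, n = 3 libraries each), Jdp2 and Bach1, and lower for Atf7 and Mafk (background of genes 16.7% higher and 28.3% lower). Mafk, a small MAF protein, had 9 called regions in every control library, 5.33 ± 0.577 in WT stimulated and 5 ± 1 in KO stimulated cells. Of 20 genes that act upstream of the members (MAP kinases, their activators and phosphatases, SRF and its ETS partners), with 149 regions, 31 of 133 rose and 44 fell, against the same background for regions. The count was higher for Map2k4, which activates JNK, Map2k6, which activates p38, Elk1, Elk3 and the JNK and p38 phosphatase gene Dusp10. It was lower for Mapk3, which encodes ERK1, Map2k1, Elk4 and Dusp1, so 5 genes were higher and 4 lower against the same background for genes. That background is a share of the 9671 testable genes. Some genes of both lists, such as Batf and Mapk8, could not be tested, so 16 and 20 are not the totals to set beside it. Dusp10 had 4 called regions in every control and 7 in every stimulated library, and Map2k6 had 1 and 3 (exact adjusted p = 0.0223 for each). Between genotypes 0 regions of either list passed for call, rank or width.

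The full lists held 75 further places near the 8 genes that met none of the 79 regions. Of these, 34 occurred in 1 library, 9 in 6 or more, and the highest deposited fold was 8.39, a peak's height over its own library's background. The pair 15.8 and 16.9 kb upstream of Fosb was present in 3 of 3 WT stimulated, 1 of 3 WT control and 2 of 3 libraries of each KO group. Altogether 4 of the 75 were found in 3 of 3 WT stimulated and 0 of 3 WT control lists and 0 showed that pattern in KO cells, but these uncut lists differ in length and the long WT stimulated lists reach weaker peaks.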

How the data were processed

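ATAC-seq peak lists of splenic NK cells, 1 per library and called per library, were deposited for 4 groups of 3. Per the submitters' processing notes, MACS2 2.1.1.20160309 and Bowtie2 2.3.4.1 were used with build mm10. The same notes name deepTools 3.4.2, SAMtools 1.15.1, cutadapt 4.1 and FastQC 0.11.9. Settings and any shift of reads for the cutting enzyme are not given in the sources used here. The authors deposited for each peak a fold, the ratio of its height to the background of its own library, −log10 p and −log10 q values (each p-value or q-value belonging to that library's peak) and an integer score. These values served only to order peaks within a list. Read depth is unknown, and the deposited fold and −log10 q order the peaks of every library alike.

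Distinct intervals on chromosomes 1 to 19, X and Y were cut to the 35110 strongest by −log10 q in each library and merged where they shared 1 bp, and a merged region stayed in if 2 or more libraries called it. Gene positions and promoter sequences were RefSeq's for GRCm38.p6; all 8 genes matched by symbol, 7 of them with a promoter window, and Fosl1 distances run from its lower gene end. Groups and replicate numbers came from the sample titles. Treatment was tested within genotype, and genotype within treatment, by exact two-sided permutation of library labels (400 rearrangements, smallest p 0.005), with Benjamini-Hochberg adjustment at 0.05 over all regions or protein-coding genes able to reach that level. The test was checked on simulated ranks. Every gene end region was to be named, with the 30 regions of largest rank difference among those that passed, and every region that separated 3 libraries from 3. The remaining 5 that passed are also given. The members, gene lists and rules were chosen with earlier results of these data known. Alternatives were other list lengths, thresholds, overlaps, region definitions and flanks, a replicate block, and each library left out. Python 3.11.15, NumPy 2.4.6 and pandas 2.3.3 were used. One B-cell marker is not reported here.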

Additional observations from a re-analysis of the deposited data

How the results depend on the processing

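Counts of member regions or genes changed by treatment are given of those testable, with those of the genome. Changed ranks were 35 of 73 (genome 8530 higher and 11066 lower of 38051). They were 22 of 50 with lists 0.5 times as long (3958 and 4866 of 19406). With calls made to cover 50% of a region they were 23 of 68 (6636 and 8845 of 34596), and within 20 kb of the genes 18 of 38. Changed calls were 7 of 14 (genome 2985 higher and 2292 lower of 8834), and 3 of 7 within 20 kb. They were 1 of 10 with all deposited intervals (1144 and 395 of 12434) and 0 of 10 with a minimum −log10 q of 10 (639 and 457 of 9516). Changed widths were 12 of 73 (genome 4222 higher and 4256 lower of 38041), 4 of 50 with those shorter lists (1890 and 2046 of 19399) and 5 of 38 within 20 kb. Changed gene counts were 2 of 4 testable genes (genome 1615 higher and 2739 lower of 9671). They were 0 of 8 with all deposited intervals and 0 of 7 with the minimum −log10 q. In those settings 0 of 13227 and 0 of 11830 genes of the genome passed, so these results are not particular to the members. With 50% cover 1 of 7 changed (534 and 953 of 11221), and within 20 kb 0 of 1 (1352 and 1843 of 6632). The 20 kb flank holds 42 of the 79 regions; for the other settings the cause was not tested. Leaving out 1 library gave 28 to 41 ranks, 7 to 8 calls, 7 to 14 widths (7 without each KO control library) and 1 to 4 gene counts (4 without KO stimulated 1, 1 of them higher and 3 lower). Of 35 rank calls 28 passed without any 1 library, as did 7 of 7 calls and 3 of 12 widths.

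Some single differences in rank turned direction. Fosl1 14.6 kb below the gene was 7.08 with 50% cover. Jun at its start was −11.1 (exact adjusted p = 0.0254) with summit windows, where the window taken for the region lies in the gene body, and Jund 32.9 kb downstream was −1.57. Leaving out 1 library moved the start difference of Fos over −0.231 to 1.44 (below 0 without KO stimulated 1 or WT control 3), that of Fosb over −0.0617 to 1.98 (below 0 without KO stimulated 1) and that of Jund over −0.208 to 0.122 (above 0 without KO stimulated 1); none of these passed with all libraries or without any 1. All genotype counts of members were 0 in every setting run. With the replicate block, however, 0 member regions could be tested for the call and 0 member genes for the count. In that setting 31 regions of the genome were called more often in KO and 26 less often, of 89 tested. Within 20 kb, too, 0 member genes could be tested for the count. Ranking by deposited fold changed nothing because it gives the same order, and ranks were not run for lists of unequal length.

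With a replicate block (64 rearrangements, smallest p 0.0312), 2 of 2 testable calls, 0 of 66 ranks, 0 of 66 widths and 1 of 2 gene counts passed. Over the genome 0 of 32115 ranks and 0 of 31807 widths passed in that setting. For calls 1625 were higher and 992 lower of 2720, and for gene counts 1078 and 1734 of 3575. Same-numbered libraries of different groups correlated at −0.058 to 0.114 in their deviations, with 2 of 12 pairs over 0.1. In 8 of the 12 pairs the best match carried the same number. These included every pair of a control and a stimulated library of 1 genotype, and the pairs without such a match were all between genotypes. The labels name no pairs, so the numbers were not taken as pairs in the main test. A pairing of control and stimulated libraries is not excluded. Unknown read depth, 3 libraries per group and the discrete p-values limit all of these counts.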
